A study of Mus musculus with 12 samples.

Results

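The genes described here encode mitochondrial ribosomal proteins. They were taken as every gene whose symbol begins with Mrpl or Mrps followed by a digit, which gave 76 of the 23235 genes in the table, and all 76 are described in it as mitochondrial ribosomal proteins. The study sequenced polysome-bound RNA, the RNA held on cytosolic ribosomes, from mouse oocytes during meiotic maturation. It compared wild type (WT) oocytes with Cnot6l-/- oocytes, which lack one of the enzymes with which CCR4-NOT removes poly(A) tails, to ask how mRNA is cleared and translated during maturation. There were 6 groups of 2 libraries, all from C57BL/6 mice at postnatal day 21 that had received PMSG, a gonadotropin that makes follicles grow. WT GV and Cnot6l-/- GV oocytes were fully grown and still arrested with an intact germinal vesicle, 48 h after PMSG. WT MI and Cnot6l-/- MI oocytes had been cultured for 8 h and were named for metaphase of the first meiotic division. WT MII and Cnot6l-/- MII oocytes had been cultured for 16 h and were named for metaphase of the second division. The labels used here do not say which part of Cnot6l is missing, how many oocytes or females gave each library, or whether replicates came from separate females, so p-values measure the spread between libraries, which may be technical.

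The mitochondrial ribosome has a large and a small subunit and translates the few proteins encoded by mitochondrial DNA, all of them subunits of the respiratory chain and the ATP synthase. All its proteins are made in the cytosol from nuclear genes and imported. Oocytes hold a very large number of mitochondria, and after meiosis resumes they make almost no new mRNA, so that the level of an mRNA is set by storage, translation and decay. CCR4-NOT shortens poly(A) tails, which starts the decay of many maternal mRNAs, whereas short U-rich letters near the 3′ end, known as cytoplasmic polyadenylation elements, let some mRNAs gain tail and be translated during maturation.

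Values are the authors' FPKM, fragment counts scaled to transcript length and library size, so levels of different genes can be compared per length. The FPKM totals of the libraries differed, from 884142 in a WT MII library to 1663871 in a Cnot6l-/- MI library, and depth in reads is unknown. Counts are therefore given with FPKM as deposited and again after scaling by a median ratio, called here scaling to the same median. Each library was divided by its median ratio to the geometric mean over 5734 genes. These were above 0 in all 12 libraries, with a mean of at least 10 FPKM. The median over all tested genes can therefore still differ between groups. Differences are log2 differences of FPKM + 1, with standard errors and Benjamini-Hochberg adjusted p-values from limma over the 11667 genes tested, and a gene is said to have risen or fallen where the adjusted p was below 0.05. Where counts at an unadjusted p below 0.05 are given, the share of all tested genes at that p was not counted. Those counts are therefore not read as a result about the members. Cnot6l itself was at 47.9 to 68.5 FPKM in the WT MI and MII libraries and at 16.0 to 23.5 FPKM in the Cnot6l-/- ones. At GV it was at 38.7 and 16.1 FPKM in WT and at 6.28 and 21.6 FPKM in Cnot6l-/-, so the groups overlapped and this level does not check the GV labels. All 9 oocyte markers were above 0 in every library, with sums of 14120 to 43380 FPKM. The 13 cumulus and granulosa markers summed to 53.0 to 314.6 FPKM, with 2 to 9 of them at 0 and Foxl2 at 0 in all 12 libraries. Of the 10 markers of theca, stroma, endothelium and blood, 8 or 9 were at 0 in each library, and Pecam1 gave most of their sum of 13.1 to 70.2 FPKM.

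The letters at the 3′ ends of 9 members are shown because members that kept their level in WT and members that lost most of it can then be read side by side. The 9 were picked after their values had been seen, other members are not shown, and the 9 do not represent the family. In the last 100 bases of the annotated 3′ UTR, the sense strand was searched for TTTTAT or TTTTAAT, written as DNA, as polyadenylation-element letters, and for AATAAA or ATTAAA, the poly(A) signal, in the last 50. Each line gives 30 bases from GENCODE release 1 on mm9, 5′ to 3′, with the match nearest the 3′ end in capitals. These searches were chosen after the values had been seen. The first 5 lines carry the element and belong to members that did not pass the test as lower in WT from GV to MI. Mrps10 also carries it and was listed at 0 from MI on, and the last 3 lines carry the poly(A) signal without the element. The other members with the element, Mrpl14, Mrpl49, Mrps2, Mrps18b and Mrps35, are not shown, and all were lower in WT MII than in WT GV. Mrps9, which lacks the element and kept its level from WT GV to MI, is not shown either.
Mrpl3: ttgcgtttgtttttataaacTTTTATTAAA
Mrpl44: gatgtaTTTTATtccctccagctttgaagt
Mrpl50: attcacTTTTATgtatcactttattatttc
Mrps14: ccaggtTTTTATgttctatgcatctacttt
Mrpl53: gatctgtcaaccaagtacaTTTTAATTAAA
Mrps10: attcctTTTTATttctggaactcatggaga
Mrps22: agctgaacatttaaaaatcttgggATTAAA
Mrpl38: gtggatgtgcctcgattctatgtgAATAAA
Mrps18c: ttttgtatttgtgaagttcctgccAATAAA
The stretches lie on mm9 at chr9:104979751-104979780 (Mrpl3), chr1:79777930-79777959 (Mrpl44), chr4:49525513-49525542 on the minus strand (Mrpl50), chr1:162132204-162132233 (Mrps14) and chr6:83059886-83059915 (Mrpl53). Those of the other four are at chr17:47515551-47515580 (Mrps10), chr9:98489168-98489197 on the minus strand (Mrps22), chr11:115993150-115993179 on the minus strand (Mrpl38) and chr5:101233429-101233458 (Mrps18c). The Mrps14 stretch lies beyond the gene model listed with the FPKM, which ends at base 162131317. Its FPKM may thus belong to a transcript with another 3′ end. In Mrpl3 the element in capitals began 4 bases before a poly(A) signal and shared letters with it, and another match, left in lower case, lay upstream of it. In Mrpl53 it began 5 bases before one. In Mrpl44, Mrpl50, Mrps14 and Mrps10 the gap from the start of the element to the start of the signal was 65, 43, 63 and 53 bases.

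Nearly all members were well represented on polysomes of GV oocytes. Their median was 139.6 and 152.5 FPKM in the WT GV libraries and 105.2 and 138.0 FPKM in the Cnot6l-/- GV libraries, against medians of 17.4 to 17.8 FPKM over all tested genes in the same libraries, and no member was at 0. The highest means over the 12 libraries were those of Mrps36 (572 FPKM), Mrps33 (533 FPKM), Mrpl18 (529.9 FPKM), Mrpl48 (459 FPKM) and Mrpl32 (451 FPKM). Mrps36 carries the family's name but is known as a subunit of the oxoglutarate dehydrogenase complex, so it was put in neither subunit. Mrps33 belongs to the small subunit and the other three to the large one. The lowest means were those of Mrpl19 (3.70 FPKM), Mrpl41 (4.91 FPKM), Mrpl17 (5.87 FPKM), Mrpl49 (8.44 FPKM) and Mrpl11 (10.6 FPKM), all of the large subunit. Mrpl19, Mrpl41 and Mrpl49 are among 8 members that overlap another gene, and the labels name no step that marks strand, so their values are uncertain (the others are Mrpl24, Mrpl53, Mrps6, Mrps25 and Mrps27).

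**Figure D1:**
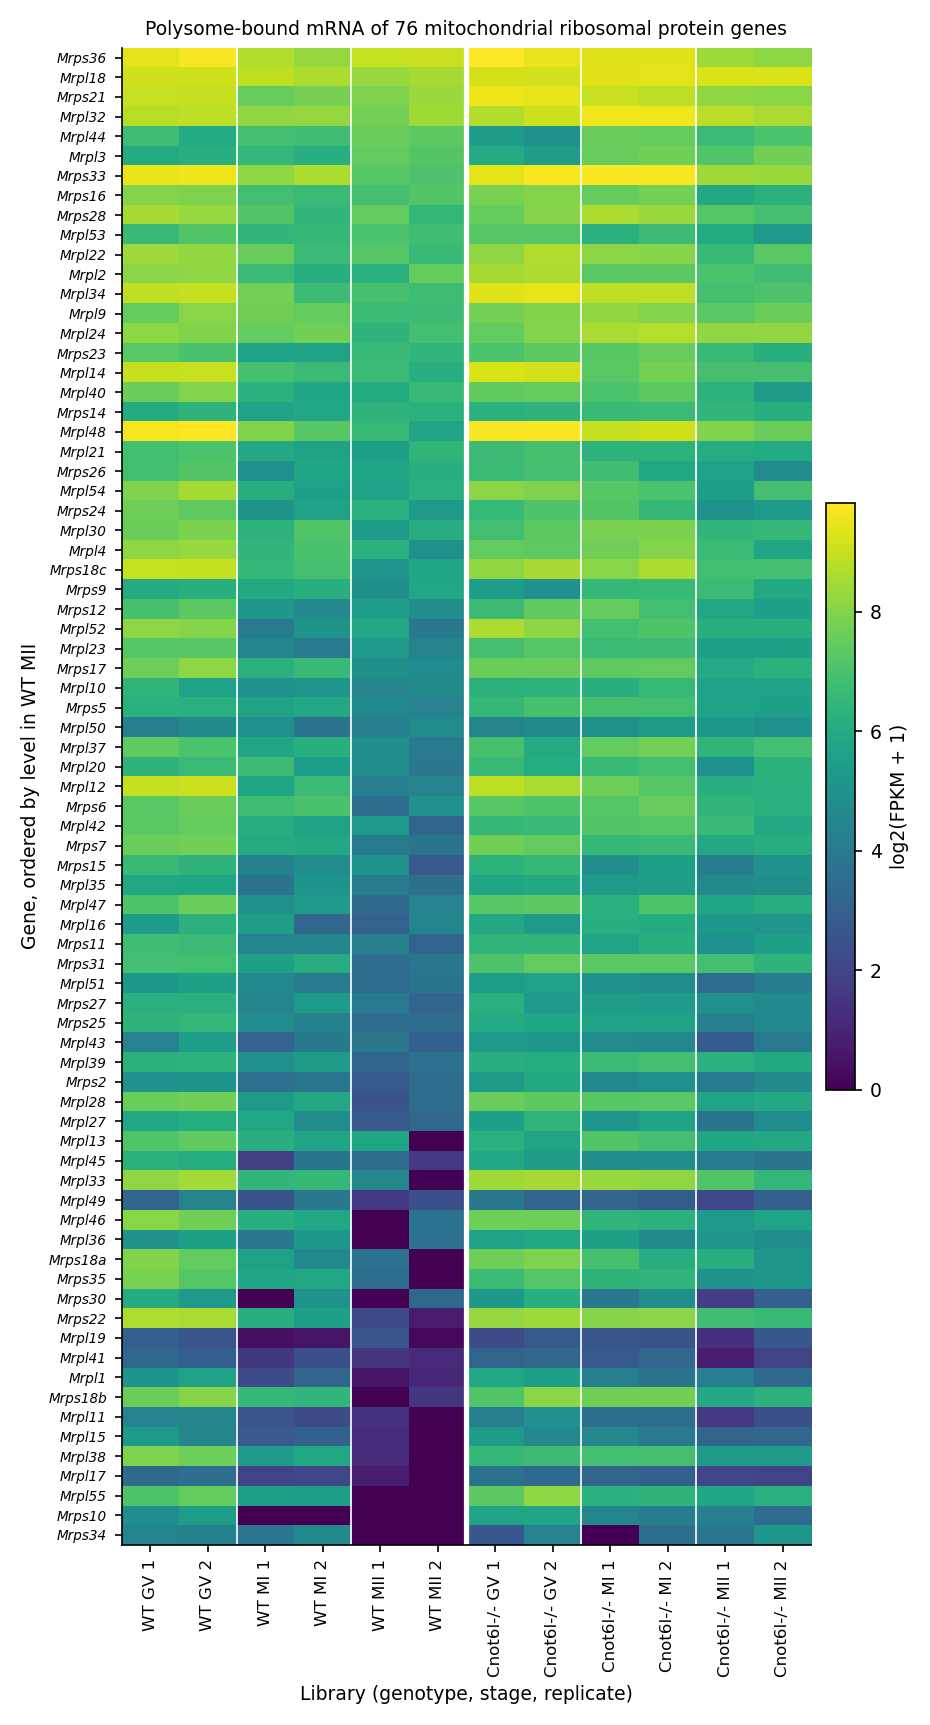
Level of each of the 76 genes as log2(FPKM + 1), with 1 row a gene, ordered by the level in WT MII, and 1 column a library, WT at the left and Cnot6l-/- at the right. The WT MII columns hold 7 and 11 genes at 0 (darkest), whereas the GV columns hold none.

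The family's polysome-bound mRNA was lower at each later stage, and at MI it was lower in WT than in Cnot6l-/- oocytes. Summed over the 76 genes, the WT GV libraries held 14724 and 15436 FPKM, the WT MI libraries 5919 and 5663 FPKM, and the WT MII libraries 4285 and 4282 FPKM. The Cnot6l-/- GV libraries held 14068 and 14882 FPKM, the MI libraries 12535 and 12834 FPKM, and the MII libraries 6609.8 and 6507 FPKM. The genotypes overlapped at GV, and both Cnot6l-/- libraries were above both WT libraries at MI and at MII. Relative to its own GV mean, the sum was 38.4% at MI and 28.4% at MII in WT, and 87.6% at MI and 45.3% at MII in Cnot6l-/-. The FPKM totals moved as well, to 83.1% and 70.0% of GV in WT and to 154% and 113% in Cnot6l-/-. As a share of the library's total, which removes that, the members made up 1.18% and 1.21% of the WT GV libraries, 0.569% and 0.533% of the WT MI libraries, and 0.481% and 0.484% of the WT MII libraries. The Cnot6l-/- share was 1.32% and 1.39% in GV oocytes, 0.766% and 0.771% in MI oocytes, and 0.545% and 0.536% in MII oocytes. The share was lower at each later stage in both genotypes, and the Cnot6l-/- libraries were above the WT ones at all 3 stages. By MII it was 40.6% of the GV share in WT and 40.0% in Cnot6l-/-. The cumulus marker sum moved in the same order in WT, from 291.6 and 314.6 FPKM at GV to 124.6 and 133.1 FPKM at MI and 78.5 and 53.0 FPKM at MII, while in Cnot6l-/- it was 147.3 and 207.4, 167.8 and 152.7, and 91.6 and 135.8 FPKM. Among these markers the highest single values were 238.8 FPKM for Inha and 100.8 FPKM for Cyp19a1, and no other was above 40.24 FPKM. The marker sum therefore need not follow the whole set. The part of the marker sum in the lower sums of the members was not tested. Fewer cells of a type and less RNA per cell, or less mRNA and less of it on ribosomes, cannot be told apart in these libraries.

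**Figure D2:**
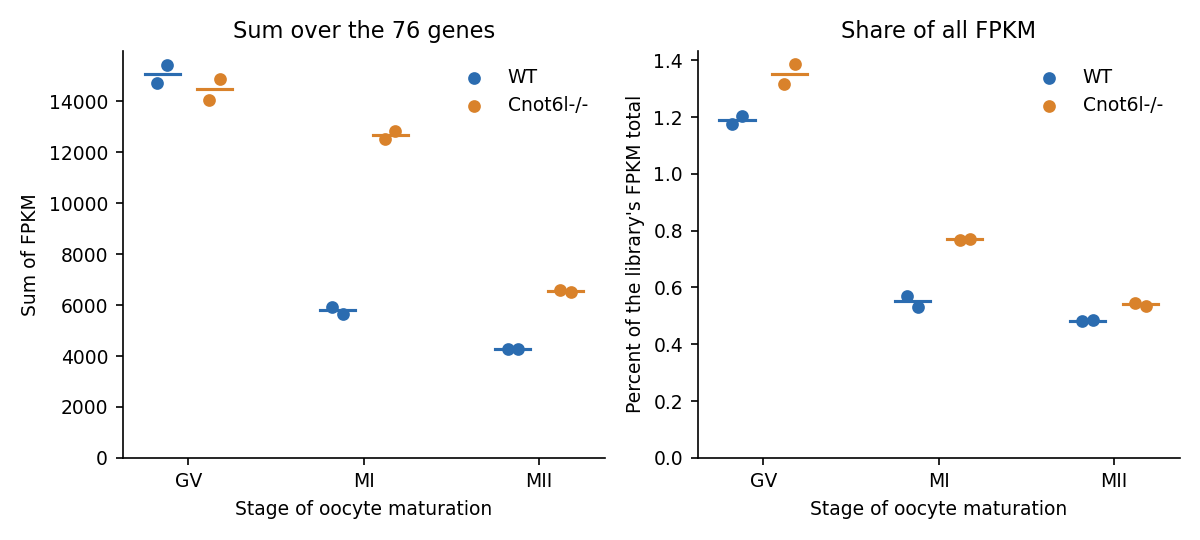
Sum of FPKM over the 76 genes (left) and that sum as a percent of the library's FPKM total (right) at each stage, with 1 point a library and a line at the mean of the 2. At MI the WT libraries are at 5919 FPKM or less and the Cnot6l-/- libraries at 12535 FPKM or more.

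From GV to MI in WT oocytes, 45 of the 76 members fell and 0 rose (limma), while 21.7% of all tested genes fell and 3.06% rose. The median of the members was -1.47, against -0.87 over all tested genes, and 74 members were below 0. After scaling to the same median, 20 members fell and 2 rose, against 7.62% and 6.99% of all genes. The 2 that then rose were Mrpl3 and Mrpl44, and the members' median was -0.82, against -0.32. Without WT GV replicate 1 or replicate 2 the count that fell was 29 each time. By subunit, 26 of 49 large-subunit and 18 of 26 small-subunit members fell, with medians of -1.48 and -1.47. After scaling these were 11 of 49 and 9 of 26, with medians of -0.85 and -0.79.

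Mrps10, a small-subunit protein with a bacterial homologue, went from 26.9 and 45.0 FPKM at GV to a listed 0 in both MI and both MII libraries of WT. Since it was listed at 0, no fold change is given, and a 0 in these files can be a failed estimate. Mrpl52, a large-subunit protein of mitochondria only, was at 281 and 262 FPKM at GV and at 15.0 and 33.1 FPKM at MI, a difference of -3.54 (SE 0.55, adjusted p = 0.00143). The groups lay far apart, and at MII the WT libraries were at 58.9 and 14.1 FPKM. Mrpl45, which sits at the exit of the peptide tunnel and helps to anchor the ribosome to the inner membrane, was at 78.9 and 67.6 FPKM at GV and at 2.63 and 13.3 FPKM at MI (-3.36, SE 0.69, adjusted p = 0.00612). Mrpl23, another protein near the tunnel exit, was at 149.6 and 153 FPKM at GV and at 21.6 and 15.9 FPKM at MI (-2.96, SE 0.32, adjusted p = 1.71e-04). Each of these 4 also fell after scaling to the same median.

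Further members fell by a similar amount. Mrpl12, the stalk protein that also binds the mitochondrial RNA polymerase, was at 492 and 537 FPKM at GV and at 54.1 and 103.6 FPKM at MI (-2.76, SE 0.29, adjusted p = 1.50e-04). Mrps22, a small-subunit protein of mitochondria only, was at 402 and 379 FPKM at GV and at 70.5 and 45.8 FPKM at MI (-2.76, SE 0.40, adjusted p = 9.94e-04). Mrps12, a protein of the decoding centre, was at 124 and 161 FPKM at GV and at 36.6 and 23.7 FPKM at MI (-2.23, SE 0.37, adjusted p = 0.00207). At the other end of the range, Mrpl18 had 551 and 548 FPKM at GV and 466 and 390.4 FPKM at MI. Its difference of -0.36 passed the test (SE 0.12, adjusted p = 0.0469) but was 0.31 after scaling to the same median (adjusted p = 0.106). Mrpl3, next to the peptidyl transferase centre, was at 62.8 and 72.4 FPKM at GV and at 90.5 and 71.7 FPKM at MI, and Mrpl44, a large-subunit protein with a fold like that of RNase III, at 109 and 63.2 and at 117 and 113 FPKM. The Mrpl3 groups overlapped and the Mrpl44 groups did not, and with deposited FPKM neither gene passed the test.

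From MI to MII in WT, 31 members (40.8%) fell and 3 (3.95%) rose, against 16.4% and 5.68% of all tested genes. The medians were -0.87 and -0.27. After scaling, 26 (34.2%) fell and 5 (6.58%) rose, against 14.9% and 8.97%. The share that rose was thus below that of all tested genes both ways. A fit of only the WT MI and WT MII libraries called none of the 11667 genes, its lowest adjusted p being 0.0582, while 5 members were higher and 22 lower at an unadjusted p below 0.05. The WT MII libraries were also the least alike, with a median difference between replicates of 0.70 on the log2 scale over the members, against 0.25 in WT GV, and 2 members were at 0 in one and above 20 FPKM in the other.

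Several members were near 0 or listed at 0 in the WT MII libraries. At this step Mrps18b, a small-subunit protein of the S18 family, went from 93.0 and 87.8 FPKM to 0 and 1.93 FPKM (-5.74, SE 0.47, adjusted p = 1.68e-05). Mrpl38, a large-subunit protein of mitochondria only, went from 38.0 and 58.7 FPKM to 1.34 and 0 FPKM (-4.98, SE 0.40, adjusted p = 1.52e-05). Mrps22 went on from its MI level to 3.71 and 0.72 FPKM (-4.34, SE 0.40, adjusted p = 3.66e-05). Mrpl55, a large-subunit protein, was at 46.0 and 45.0 FPKM in WT MI and was listed at 0 in both WT MII libraries. Mrps34, of the small subunit, was at 13.5 and 23.7 FPKM and was then listed at 0 in both as well, but it was also at 0 in 1 Cnot6l-/- MI library. Of all tested genes, 26.2% and 26.6% were at 0 in the WT MII libraries, against 9.21% and 14.5% of the members.

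The members that rose from MI to MII in WT were Mrpl3, Mrps23 and Mrps36. Mrpl3 rose to 173.5 and 145 FPKM (0.97, SE 0.27, adjusted p = 0.0265), above every WT GV and MI library. Mrps23, of the small subunit, was at 159 and 126 FPKM at GV, fell to 51.0 and 49.2 FPKM at MI and rose to 100.1 and 88.6 FPKM at MII (0.90, SE 0.25, adjusted p = 0.025). Mrps36 was at 415 and 309 FPKM at MI and at 512 and 520.2 FPKM at MII (0.52, SE 0.17, adjusted p = 0.0474). The 3 differences were 1.19, 1.12 and 0.75 after scaling to the same median, with adjusted p of 0.00997, 0.00849 and 0.0101. Without WT MI replicate 2, none of the members passed the test as higher. Mrpl44 was at 192 and 160.5 FPKM in WT MII, its highest WT levels, with a difference of 0.61 (SE 0.28) that did not pass.

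**Figure D3:**
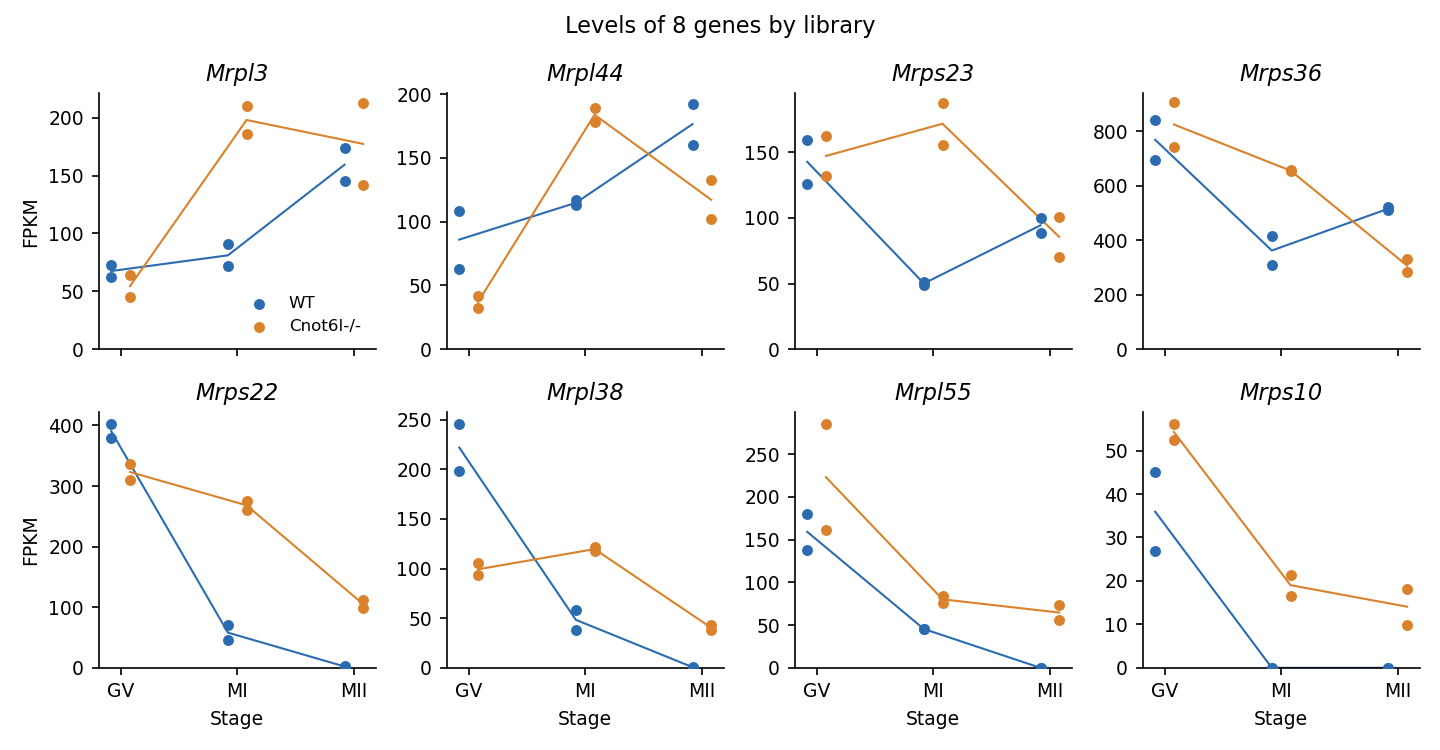
FPKM of 8 genes by stage, with 1 point a library and lines through the means of WT (blue) and Cnot6l-/- (orange). Mrpl3, Mrpl44, Mrps23 and Mrps36 (top) are higher in WT at MII than at MI, whereas Mrps22, Mrpl38, Mrpl55 and Mrps10 (bottom) are near or at 0 in WT MII and at 9.90 FPKM or more in every Cnot6l-/- library.

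In Cnot6l-/- oocytes fewer members passed the test from GV to MI than in WT, but the share that fell was above that of all tested genes. With deposited FPKM 5 (6.58%) rose and 6 (7.89%) fell, against 8.89% and 1.35% of all tested genes. The members' median was -0.29 while that of all genes was 0.26. After scaling to the same median 2 (2.63%) rose and 7 (9.21%) fell, against 4.19% and 2.32%, with medians of -0.67 and -0.08. With every library brought to the same FPKM total, 2 (2.63%) rose and 14 (18.4%) fell, against 2.7% and 3.69%. The 5 that rose with deposited FPKM were Mrpl44, Mrpl3, Mrps9, Mrpl24 and Mrpl32. Mrpl44 rose from 41.7 and 32.04 FPKM to 189 and 178 FPKM (2.30, SE 0.28, adjusted p = 3.86e-04). Mrpl3 rose from 64.0 and 44.9 FPKM to 186 and 210.2 FPKM (1.86, SE 0.27, adjusted p = 0.00115). These 2 remained after scaling to the same median, at 1.91 and 1.48. Mrps9, at the head of the small subunit, went from 43.8 and 30 FPKM to 93.1 and 100.4 FPKM (1.39, SE 0.38, adjusted p = 0.0424), and Mrpl24 from 174 and 257 FPKM to 378 and 419.8 FPKM (0.91, SE 0.23, adjusted p = 0.0272). These last values did not pass after scaling.

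The 6 that fell in Cnot6l-/- were Mrpl14, Mrpl55, Mrpl12, Mrpl2, Mrps7 and Mrps21, and all 6 were among the 45 that fell in WT, which is 13.3% of those 45. Of all 76 members, 59.2% fell at this step in WT and 7.89% in Cnot6l-/-, and the overlap was not tested. Mrpl14, a protein of the face that meets the small subunit, had 612 and 576 FPKM at GV and 160.0 and 219.9 FPKM at MI (-1.66, SE 0.22, adjusted p = 6.95e-04). Mrpl12 went from 474 and 376 FPKM to 199.6 and 150.4 FPKM (-1.28, SE 0.29, adjusted p = 0.0191). Mrpl2, a core protein of the large subunit, went from 364 and 388 FPKM to 158 and 163 FPKM (-1.22, SE 0.34, adjusted p = 0.0457). These counts moved with single libraries: without each of the Cnot6l-/- GV and MI libraries in turn, 2 or 3 members rose and 1 or 2 fell, without each WT GV or WT MI library 3 rose, and without WT MII replicate 2 there were 11 that fell.

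From MI to MII in Cnot6l-/-, 21 members fell and 0 rose, against 7.18% and 0.163% of all tested genes, with medians of -0.95 and -0.59, and 75 members were below 0. After scaling 1 fell, Mrps33, and 0 rose, against 0.677% and 0.84%, with medians of -0.38 and -0.08. At an unadjusted p below 0.05, 15 members were lower and 2 higher after scaling. The count that fell was 4 to 6 without any 1 of the 4 Cnot6l-/- MI and MII libraries, and 10 and 11 without WT GV replicate 1 and replicate 2. Mrps33 was at 865 and 834 FPKM at MI and at 346 and 329 FPKM at MII (-1.33, SE 0.16, adjusted p = 7.31e-04; after scaling -0.75, adjusted p = 0.0464). Mrpl34, a large-subunit protein with a bacterial homologue, went from 472 and 471 FPKM to 121 and 134 FPKM (-1.88, SE 0.27, adjusted p = 0.00256). Mrps16, of the small subunit, went from 180.1 and 218 FPKM to 57.0 and 78.0 FPKM (-1.56, SE 0.21, adjusted p = 0.00205). Mrps24 went from 144 and 92.9 FPKM to 31.6 and 38.0 FPKM (-1.71, SE 0.38, adjusted p = 0.0224), and Mrpl4, which lines the peptide tunnel, from 204 and 258 FPKM to 103 and 53.3 FPKM (-1.62, SE 0.42, adjusted p = 0.0458). Of the 21 members, 10 were also among the 31 that fell at this step in WT, which is 47.6% of the 21 and 32.3% of the 31. Of all 76 members, 40.8% fell at this step in WT and 27.6% in Cnot6l-/-. Whether the overlap exceeds what these shares give was not tested.

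Set against WT at the same stage, no member passed the test at GV. With deposited FPKM 0 members were higher and 0 lower (limma), against 0.163% and 1.4% of all tested genes, and after scaling again 0 and 0, against 0.197% and 0.96%. At an unadjusted p below 0.05, 1 was higher and 4 were lower, and the share of all tested genes at that p was not counted. The lowest adjusted p was that of Mrpl44 (0.0904), at 109 and 63.2 FPKM in WT and at 41.7 and 32.04 FPKM in Cnot6l-/-, a difference of -1.16. Mrpl38 was at 245 and 198 FPKM in WT and at 93.0 and 105 FPKM in Cnot6l-/-, groups that did not overlap, with a difference of -1.15 (adjusted p = 0.295). Without 1 of the WT MII libraries, which enter the shared estimate of spread, 1 member passed as lower.

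At MI 36 members were higher in Cnot6l-/- than in WT and 0 were lower, against 27.9% and 0.463% of all tested genes. The members' median was 1.13, next to 1.03 over all tested genes. After scaling to the same median 2 members were higher, Mrpl23 and Mrps10, and 0 lower, against 2.16% and 2.46%, with medians of 0.23 and 0.21. At an unadjusted p below 0.05, 10 were higher and 3 lower after scaling. With every library brought to the same FPKM total, 5 members (6.58%) were higher, against 4.27% of all tested genes. The count of 36 was 17 without Cnot6l-/- MI replicate 2, and 22 without Cnot6l-/- MI replicate 1 or WT MI replicate 1.

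Mrpl23 was at 104 and 105 FPKM in Cnot6l-/- MI and at 21.6 and 15.9 FPKM in WT MI (2.43, SE 0.32, adjusted p = 7.34e-04; after scaling 1.49, adjusted p = 0.032). Mrps10 was at 21.5 and 16.6 FPKM where both WT MI libraries were listed at 0. Mrps12 was at 180.2 and 114 FPKM against 36.6 and 23.7 FPKM in WT (2.25, SE 0.37, adjusted p = 0.00224; after scaling 1.30, adjusted p = 0.0896). Mrpl52 was at 119 and 139.99 FPKM against 15.0 and 33.1 FPKM (2.48, SE 0.55, adjusted p = 0.00958; after scaling 1.53, adjusted p = 0.177). In each of these genes the groups were well apart. For Mrpl18, at 659 and 681 FPKM against 466 and 390.4 FPKM, the difference of 0.65 (adjusted p = 0.00377) became -0.32 after scaling (adjusted p = 0.173).

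At MII more members were higher in Cnot6l-/- than lower. With deposited FPKM 35 members (46.1%) were higher in Cnot6l-/- and 3 (3.95%) lower, against 25.4% and 3.2% of all tested genes, with medians of 1.14 and 0.81. The share that was lower was thus near that of all tested genes. After scaling 24 were higher and 9 lower, against 16.1% and 8.31%, with medians of 0.56 and 0.41. A fit of the MII libraries alone called 14 members higher and 1 lower, and 1537 of all 11667 tested genes in either direction. Mrps22 was at 112 and 98.1 FPKM in Cnot6l-/- against 3.71 and 0.72 FPKM in WT (5.22, SE 0.40, adjusted p = 7.77e-06; after scaling 4.81). Mrpl38 was at 42.7 and 38.1 FPKM against 1.34 and 0 FPKM (4.76, SE 0.40, adjusted p = 1.58e-05; after scaling 4.53). Mrps18b was at 60.3 and 79.3 FPKM against 0 and 1.93 FPKM (5.36, SE 0.47, adjusted p = 2.06e-05; after scaling 5.12). In these genes no Cnot6l-/- library came near the WT level. Mrpl55 was at 55.7 and 73.6 FPKM, Mrps10 at 18.2 and 9.90 FPKM and Mrps34 at 13.4 and 35.0 FPKM, and all 3 were listed at 0 in both WT MII libraries.

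The 3 members that were lower in Cnot6l-/- at MII were Mrpl53, Mrps16 and Mrps36. Mrpl53, of the large subunit, was at 63.5 and 37.8 FPKM against 132 and 112 FPKM in WT (-1.30, SE 0.30, adjusted p = 0.00862). Mrps16 was at 57.0 and 78.0 FPKM against 117 and 148 FPKM (-0.97, SE 0.21, adjusted p = 0.00716), and Mrps36 at 332 and 282 FPKM against 512 and 520.2 FPKM (-0.75, SE 0.17, adjusted p = 0.00729). Neither group overlapped the other in any of the 3, and they were -1.90, -1.57 and -1.36 after scaling. Without Cnot6l-/- MII replicate 2, 1 member passed as lower. The reads of Mrpl53 cannot be told apart from those of Ccdc142, which it overlaps.

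**Figure D4:**
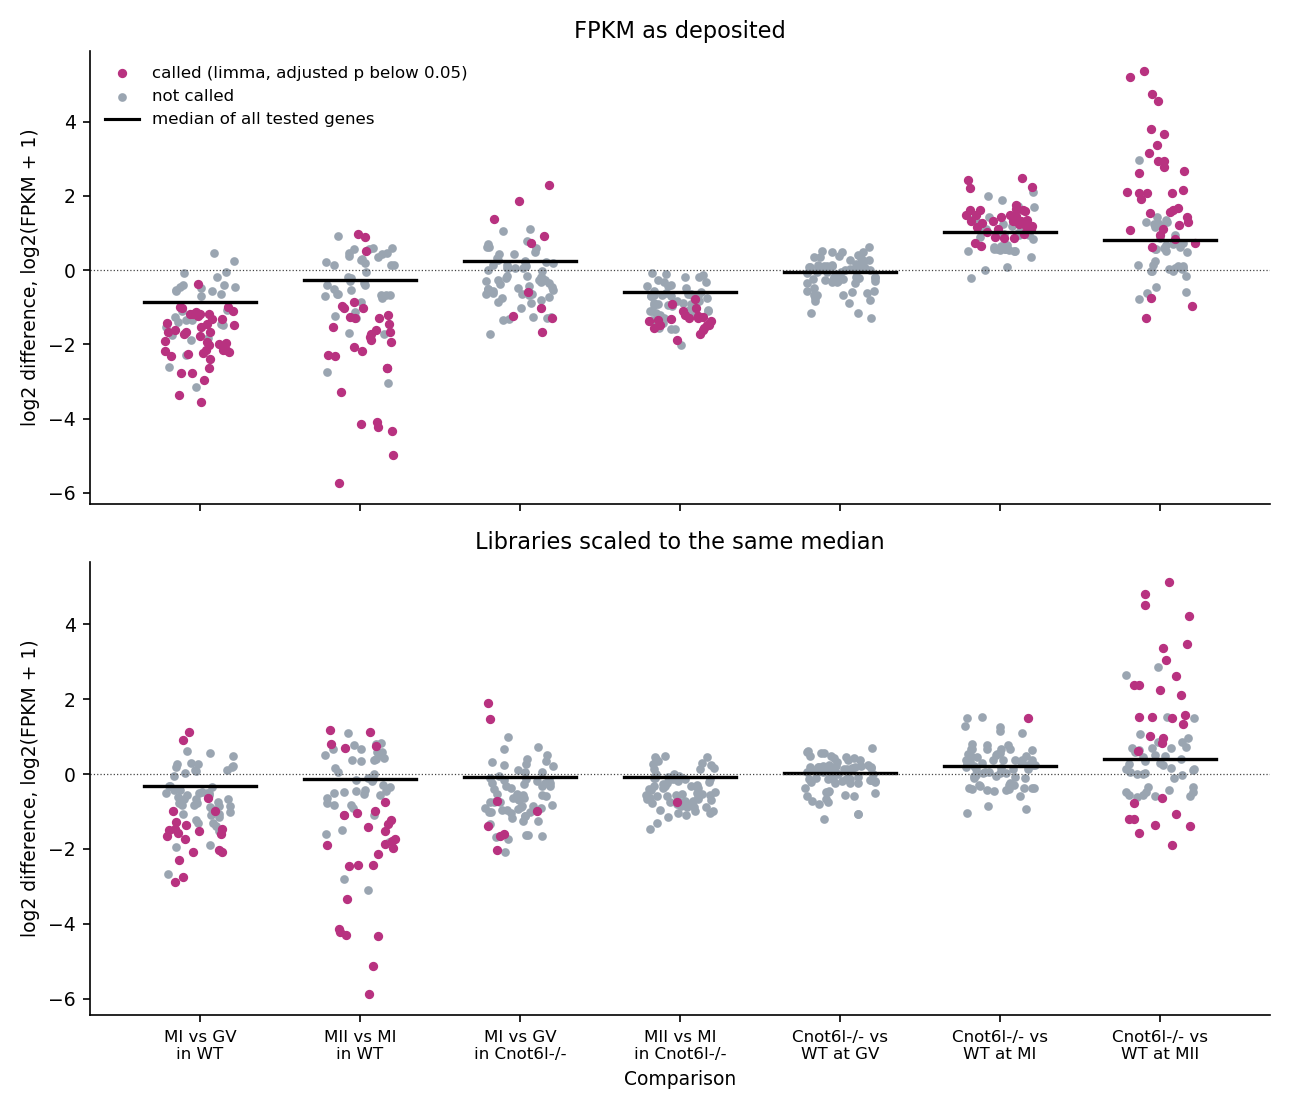
The log2 difference of each member in 7 comparisons, with FPKM as deposited (top) and after scaling to the same median (bottom), where each point is 1 gene, magenta points passed the test and black lines are the medians of all tested genes. The 3 genes listed at 0 in a whole group are left out, and the difference at MI between genotypes shrinks with scaling while the wide spread at MII remains.

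The change from GV to MI differed between the genotypes in 23 members, all with the higher value in Cnot6l-/- (limma, interaction term), against 14.4% higher and 0.266% lower of all tested genes, with medians of 1.28 and 1.13. After scaling 0 members differed in either direction, against 0.643% and 0.926%, the lowest adjusted p being 0.0945, while 7 were higher and 2 lower at an unadjusted p below 0.05. Mrps22 had the values given above, and its difference of differences was 2.49 (SE 0.57, adjusted p = 0.0173; after scaling 1.44, adjusted p = 0.393). Mrps18c went from 509 and 505 to 91.3 and 119.6 FPKM in WT and from 294 and 374 to 269.7 and 394 FPKM in Cnot6l-/- (2.24, SE 0.38, adjusted p = 0.00398; after scaling 1.19, adjusted p = 0.179). The count of 23 was 9 and 8 without WT GV replicate 1 and 2, 10 and 14 without Cnot6l-/- GV replicate 1 and 2, 5 and 7 without Cnot6l-/- MI replicate 1 and 2, and 37 without either WT MII library.

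The change from MI to MII differed in 12 members, 6 with the higher and 6 with the lower value in Cnot6l-/-, against 2.81% and 3.71% of all tested genes, and in 7 and 4 after scaling, against 4.51% and 1.73%. Those with the higher value were Mrps34, Mrpl55, Mrps18b, Mrpl38, Mrps22 and Mrps7. In all but Mrps7 the WT level at MII was near or at 0, and Mrps7 went from 65.0 and 62.0 to 16.2 and 12.7 FPKM in WT and from 91.2 and 99.8 to 59.6 and 68.3 FPKM in Cnot6l-/-. Those with the lower value were Mrps24, Mrps23, Mrps16, Mrps36, Mrpl34 and Mrps21. Mrps23 went from 51.0 and 49.2 to 100.1 and 88.6 FPKM in WT and from 155.5 and 188 to 100.7 and 70.3 FPKM in Cnot6l-/- (-1.91, SE 0.35, adjusted p = 0.00965; after scaling -1.55, adjusted p = 0.0259). Mrps36 went from 415 and 309 to 512 and 520.2 FPKM in WT and from 654 and 657 to 332 and 282 FPKM in Cnot6l-/- (-1.62, SE 0.24, adjusted p = 0.00287; after scaling -1.26, adjusted p = 0.0125). With deposited FPKM both genes rose at this step in WT and fell in Cnot6l-/-. The 6 higher were 12 and 11 without WT MII replicate 1 and 2, and the 6 lower were 10 without WT MII replicate 2 and 3 without either Cnot6l-/- MI library.

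The 3 paralogues of the S18 family did not move alike in WT. Mrps18c, the form most like bacterial S18, was the most abundant at GV, with the values above, and had 34.0 and 54.3 FPKM in WT MII. Mrps18b kept 93.0 and 87.8 FPKM of 196 and 266 FPKM in WT MI (-1.33, SE 0.47, which did not pass) and was nearly gone at MII. Mrps18a, which sits in the large subunit, had 249 and 177 FPKM in the WT GV libraries, 48.5 and 23.3 FPKM in the MI libraries, and 11.8 and 0 FPKM in the MII libraries. In Cnot6l-/- MII the 3 were at 115 and 119, 60.3 and 79.3, and 68.2 and 35.4 FPKM, above every WT MII library of the same gene. Mrps30, another large-subunit protein with a small-subunit name, was uneven between WT replicates, at 0 and 32.1 FPKM at MI and 0 and 8.98 FPKM at MII.

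The counts were also split by the origin of the protein. From GV to MI in WT, 28 of 47 members with a bacterial homologue and 15 of 27 mitochondria-specific members fell, against 21.7% of all tested genes, with medians of -1.46 and -1.48. After scaling 14 of the 47 and 6 of the 27 fell, against 7.62%, with medians of -0.83 and -0.81. At MI, 23 of the 47 and 12 of the 27 were higher in Cnot6l-/- than in WT, against 27.9%, and 2 and 0 after scaling, against 2.16%. The small subunit had 16 of 26 members higher at MI and the large subunit 19 of 49, and each had 1 after scaling. No difference between these classes was tested.

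Other genes of mitochondrial gene expression were read from lists. From GV to MI in WT, where 21.7% of all tested genes fell, 4 of 6 further mitoribosome genes with other names fell: Gadd45gip1 (-3.52, adjusted p = 2.0e-05), Aurkaip1 (-2.72, adjusted p = 3.2e-04), Ict1 (-2.33, adjusted p = 0.0027) and Dap3 (-1.56, adjusted p = 0.0063). Of 14 translation factors 4 fell (28.6%), among them Mrrf, the ribosome recycling factor (-2.18, adjusted p = 0.0081), and Mtif3, an initiation factor (-1.83, adjusted p = 0.011). Of 23 assembly factors and rRNA enzymes 6 fell (26.1%) and 1 rose, Mterfd1 (1.92, adjusted p = 0.0030). Of 16 genes of transcription and RNA processing 3 fell (18.8%) and 1 rose, and those that fell included Polrmt, the mitochondrial RNA polymerase (-3.49, adjusted p = 0.0010). Of 15 mitochondrial tRNA synthetases 4 fell (26.7%) and 1 rose, Fars2 (0.63, adjusted p = 0.020). The last 4 lists were thus near the share over all tested genes. After scaling, where 7.62% of all genes fell, the 5 lists had 3, 0, 4, 1 and 1 genes that fell and 0, 2, 1, 2 and 2 that rose. At MI, where 27.9% of all tested genes were higher in Cnot6l-/- than in WT, the lists had 3, 3, 6, 3 and 2 genes higher, and the 4 larger lists lay below that share, at 21.4%, 26.1%, 18.8% and 13.3%. Wbscr16, of the assembly factors, was lower. After scaling 1, 0, 1, 0 and 0 genes were higher at MI, against 2.16%.

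Cytosolic ribosomal proteins and complex I, the first enzyme of the respiratory chain, were counted likewise. From GV to MI in WT, 65 of the 85 cytosolic ribosomal protein genes tested fell and 0 rose, with a median of -1.62, and 41 fell and 5 rose after scaling, with a median of -0.94. Of 37 complex I subunits 20 fell and 1 rose, with a median of -1.10, and 10 fell and 4 rose after scaling, with a median of -0.43. The share that fell was 59.2% of the mitochondrial ribosomal proteins, 76.5% of the cytosolic ones, 54.1% of complex I and 21.7% of all tested genes with deposited FPKM. After scaling it was 26.3%, 48.2%, 27% and 7.62%, so the shares of the mitochondrial ribosomal proteins and complex I were close to each other. At MI, 63 cytosolic ribosomal proteins were higher and 0 lower in Cnot6l-/- than in WT, and 11 and 5 after scaling. Of the complex I subunits 22 were higher and 1 lower at MI, and 1 and 3 after scaling, where all tested genes had 27.9% higher and 0.463% lower, and 2.16% and 2.46% after scaling. In Cnot6l-/- from GV to MI, 9 complex I subunits rose and 1 fell, against 8.89% and 1.35% of all tested genes, with a median of 0.46, and after scaling 2 rose and 3 fell, against 4.19% and 2.32%, with a median of 0.08. The median of the cytosolic ribosomal proteins there was -0.16, and -0.54 after scaling. The differences between these sets were not tested.

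The 3′ ends shown above were then set beside the change from GV to MI in WT. Of the 76 members, 11 had the element letters in the last 100 bases (14.5%), as did 2135 of the 10952 tested genes with an annotated 3′ UTR (19.5%). The 11 were Mrpl3, Mrpl14, Mrpl44, Mrpl49, Mrpl50, Mrpl53, Mrps2, Mrps10, Mrps14, Mrps18b and Mrps35. Among them 2 fell, Mrpl14 and Mrps10, and the median was -0.53, whereas 43 of the 65 without the letters fell, with a median of -1.52. Over all tested genes with a 3′ UTR, 15.6% of those with the letters and 23.5% of those without fell. Mrpl3 and Mrpl44, the 2 members above 0, both had them. Over all tested genes the medians were -0.54 with the letters and -0.95 without. After scaling, 2 of the 11 fell and 2 rose, and 18 of the 65 fell and 0 rose. From MI to MII in WT, the medians of the members were 0.00 with and -1.03 without the letters, and of all genes 0.00 and -0.39.

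Several members went against the split. Mrps10 has the letters and was listed at 0 from WT MI on, and Mrps18b has them and was nearly gone by WT MII. Mrps35 has them and went from 232 and 151.7 FPKM in WT GV to 10.1 and 0 FPKM in WT MII. Mrpl14, Mrps2 and Mrpl49 have them too, and both WT MII libraries of each were below both WT GV libraries. Mrps14 and Mrpl50, picked for display after their values had been seen, were at 65.5 and 82.8 FPKM and at 17.7 and 23.7 FPKM in WT GV. In WT MI they were at 49.5 and 56.5 FPKM and at 29.9 and 12.5 FPKM, so that Mrps14 was below both of its GV libraries there, and in WT MII they were at 82.9 and 76.7 FPKM and at 18.3 and 25.9 FPKM. Mrps9 has none of the letters, and went from 65.8 and 70.1 FPKM in WT GV to 60.9 and 71.2 FPKM in WT MI. The members' transcripts were short, with a median of 1199 bases and a 3′ UTR of 301.5 bases, against 2721 and 812.5 bases over the tested genes, and 69.7% had a poly(A) signal in the last 50 bases, against 77.0%. Across the 76 genes, which share libraries and are not independent replicates, the correlation of log2 transcript length with the change from GV to MI in WT was 0.05. A match of letters is a description and shows neither binding nor use of a site.

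**Figure D5:**
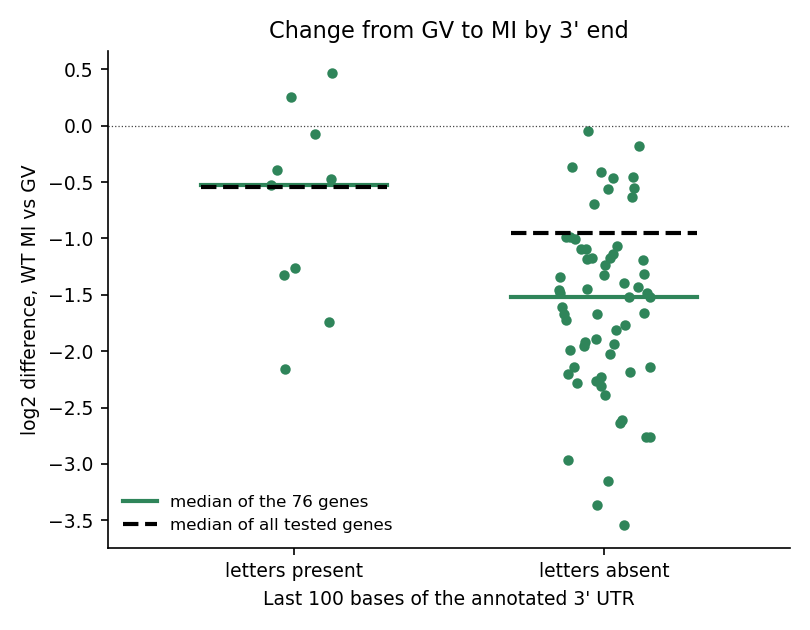
The log2 difference of the members between MI and GV in WT, split by whether the last 100 bases of the annotated 3′ UTR hold TTTTAT or TTTTAAT, with 1 point a gene (3 genes listed at 0 in a whole group are left out) and lines at the medians of the 76 genes (green) and of all tested genes (dashed). The medians of the 76 genes are -0.53 with and -1.52 without the letters.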

How the data were processed

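Polysome-bound RNA was sequenced from 12 libraries in 6 groups of 2. The authors deposited FPKM values per gene. Cufflinks 2.2.1, TopHat2 2.0.11, Bowtie2 2.1.0, CASAVA 1.8 and mm9 are named, without order or role, per the submitters' processing notes. Per the labels' protocols the libraries came from pre-amplified cDNA cut with Tn5. Read depth is not given, so no counting intervals can be made and low values are imprecise.

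From the FPKM, log2(FPKM + 1) was fitted with limma 3.58.1 (R 4.3.3; abundance trend) as 6 group means over the 11667 of 23235 genes whose mean reached 1 FPKM, which include all 76 members. Residual df were 6 and prior df 4.27, and p-values, 2-sided, were adjusted over all tested genes. There were 9 contrasts, 7 of 2 groups and 2 interaction terms. The 18 alternatives were another pseudocount, no filter, the same FPKM total, the same median, a fit of the compared groups only, a replicate block and leaving out each library. The same median was a median ratio over 5734 genes above 0 in all 12 libraries whose mean reached 10 FPKM. The script was tested on simulated data. The labels do not say whether equal replicate numbers mark a pair, and the main fit used no pairing. Correlations of replicate differences between groups were -0.0292 to 0.0547.

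The text names, per contrast and direction, up to 4 members past the threshold that changed most, with non-overlapping groups and a mean of at least 5 FPKM; members listed at 0 in a group; the 5 highest and 5 lowest; and a fixed list. Counts of 6 or fewer members per contrast and direction are named in full with deposited FPKM. Such counts in the other settings, and those of the other gene lists, are not all named. Members, lists and tests were chosen with earlier results of these data known. 3′ ends came from GENCODE mouse release 1 on mm9; all 76 members had one.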

Additional observations from a re-analysis of the deposited data

Results flagged for a closer look

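The change from GV to MI differed between Cnot6l-/- and WT in 23 members, which had the higher value in Cnot6l-/-, and in 0 with the lower value, by the interaction term of the limma fit with deposited FPKM; after scaling to the same median it differed in 0. As differences of log2 differences, the named members had 0.57 (Mrpl18), 1.28 (Mrpl32), 1.32 (Mrps33), 1.36 (Mrpl24), 1.41 (Mrpl48), 1.48 (Mrpl12), 1.61 (Mrpl3), 1.704 (Mrps23), 1.83 (Mrpl44), 2.15 (Mrps24), 2.24 (Mrps18c), 2.34 (Mrps12), 2.47 (Mrpl38), 2.49 (Mrps22) and 2.61 (Mrpl23). For Mrpl18 the value was -0.49 after scaling.

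The change from MI to MII differed in 6 members with the higher and 6 with the lower value in Cnot6l-/-. The named ones had -2.09 (Mrps24), -1.91 (Mrps23), -1.84 (Mrps16), -1.62 (Mrps36), -1.50 (Mrpl34), 2.998 (Mrps22), 3.43 (Mrpl38) and 4.17 (Mrps18b). Mrps10, Mrpl55 and Mrps34 also passed 1 of these tests, but have no value here because a whole WT group was listed at 0.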

How the results depend on the processing

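Both scalings and the fit of the compared groups alone moved counts. Scaled to the same median, 2 members were higher in Cnot6l-/- at MI, 9 lower at MII, 2 rose and 20 fell from GV to MI in WT, 5 rose from MI to MII in WT, 2 rose from GV to MI and 1 fell from MI to MII in Cnot6l-/-, and 0 had the higher interaction from GV to MI. With the same FPKM total these were 5 higher at MI, 5 risen from MI to MII in WT, 2 risen and 14 fallen from GV to MI and 3 fallen from MI to MII in Cnot6l-/-, and 0. The shares of all tested genes were 4.27%, 9.04%, 2.7% and 3.69%, 1.02% and 0.969%, in that order. Fitting only the compared groups gave 14 higher and 1 lower at MII, 0 risen and 0 fallen from MI to MII in WT, 3 risen and 12 fallen from GV to MI in Cnot6l-/-, and 36 and 3 higher interactions. In either direction, the fit of the compared groups called 1537 of the 11667 tested genes at MII and 0 from MI to MII in WT. It called 1241 from GV to MI in Cnot6l-/-, and 2413 and 482 in the interactions. A pseudocount of 0.1 and no filter each gave 3 risen from GV to MI in Cnot6l-/-.

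Leaving out 1 library at a time gave 0 to 1 lower at GV, 17 to 48 higher and 0 to 1 lower at MI, 25 to 39 higher and 1 to 3 lower at MII in Cnot6l-/- against WT. From GV to MI, 29 to 57 fell in WT, and 2 to 6 rose and 1 to 11 fell in Cnot6l-/-. From MI to MII, 0 to 4 rose and 22 to 34 fell in WT, and 0 to 1 rose and 4 to 31 fell in Cnot6l-/-. The interactions had 5 to 37 higher from GV to MI, and 4 to 12 higher and 3 to 10 lower from MI to MII. A group left with 1 library is assumed to vary like the others. Shares of all tested genes were not counted for the fits without 1 library, the replicate block, the other pseudocount or no filter. Member counts from those fits are therefore not read as a result about the members.

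With the replicate block, 37 members were higher at MI, and 36 were higher and 3 lower at MII. From GV to MI, 44 fell in WT, and 4 rose and 4 fell in Cnot6l-/-. From MI to MII, 30 fell in WT and 18 in Cnot6l-/-. Higher interactions were found in 23 and 6 members. Whether equal replicate numbers mark a pair is not known. Over 123 calls of named members and 18 settings, 1734 of 2214 values kept side and direction, 473 no longer passed and 7 reversed. Reversed by scaling to the same median were Mrpl14 (-0.23), Mrps16 (-0.088), Mrps36 (-0.096) and Mrpl18 (-0.32) in Cnot6l-/- against WT at MI, and Mrpl18 from GV to MI in WT (0.31) and in the interaction (-0.49; -0.32 with the same FPKM total). Unknown read depth limits low FPKM.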
